A study of Mus musculus with 8 samples.

Results

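The oligos described here are the array probes that carry a match to the seed of the microRNA miR-203-3p. A probe was a member if its 60 bases held, as deposited, the 7-base DNA complement of miRNA positions 2 to 8. Of the 42006 mouse probes on the array, 295 held it. Of these, 197 were kept because the footpad signal stood well above background on both arrays of at least 1 group, among 29199 probes of any sequence that passed the same filter. The choice used the letters of the probes and no measured difference between groups. Of the 98 members that were not kept, 92 were well above background on no array. Of the 197 kept, 173 were well above background on all 8 arrays, 8 passed through a single group, and none was saturated on any array.

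RNA came from the footpad skin of mouse embryos, the hairless skin in which sweat glands form. The 4 groups were a conditional Dicer knockout (KO) and wild type (WT), each at the embryonic stages E16.5 and E17.5 (days after timed mating), on a C57BL6 background. Each group had 2 arrays labelled as biological replicates, and the footpads of 3 to 5 embryos were pooled for each. Cy3 marked the footpad sample and Cy5 a universal mouse reference on every array; dyes were not swapped. Values are M, the log2 of footpad over reference signal, so a difference in M of 1 is a 2-fold difference. The Cre line and the cells in which it acts are not given in the sources used here. In whole footpad skin, fewer cells of a type and less RNA per cell cannot be told apart. The 4 arrays of a stage shared a slide. Genotypes were thus compared on the same slide, but a stage effect and a slide effect cannot be told apart.

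MicroRNAs are short RNAs that Dicer cuts from hairpin precursors. Loaded into an Argonaute protein, they pair through their seed with messenger RNAs, most effectively in the 3' untranslated region, and lower the amount or the translation of those messages. miR-203 is abundant in stratified epithelium, where it is known for promoting the exit of keratinocytes from the stem-like state, in part by repressing the transcription factor p63. Cells that lose Dicer are known to lose most microRNAs, not miR-203 alone. No microRNA was measured on these arrays, so how far miR-203 fell in these footpads is not known here.

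The mature miRNA is shown first with its seed in capitals, followed by the stretch of 30 bases around the site in the members on which the results turn, with the site in capitals. All are 5' to 3'. The miRNA sequence is from RefSeq (GRCm38.p6, chr12:112130927-112130948, plus strand).
miR-203-3p: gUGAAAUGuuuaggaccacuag
Z00075914-1, higher in KO: acggcacttaaCATTTCAgttgtagtcact
Z00025996-1, higher in KO: cctttggattgCATTTCAagttggtagttc
Z00062898-1, higher in KO: tgtgtCATTTCAgactgtaggctgagctgt
Z00042229-1, lower in KO: acctgacaagaCATTTCAaagaaagcatta
Z00055751-1, lower in KO: gtaaggtgtaaCATTTCAggctgagtccta
Z00013169-1, lower in KO: acactatctgaCATTTCAtggtccaggtga
Z00076113-1, lower in KO: cctacagagggCATTTCAtaagctacaaca
Z00028572-1, longest match: atgtctataaaCATTTCAgctcaataaata
Z00016070-1, longest match: aaataaaCATTTCAttcgatgaattgaaga
Z00059078-1, 2 copies of the site: gcaccataactcacaCATTTCAataaagca

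The site reads CATTTCA, the complement of the seed UGAAAUG. Among the 1738 mature mouse miRNAs in the RefSeq table, miR-203-3p was the only 1 with this seed. The 7 letters were present in 0.675% of the probes that passed the filter. For comparison, the site of miR-205-5p, another microRNA abundant in skin epithelium (ATGAAGG), was in 0.647% of them, and that of miR-200b-3p, which is known for holding epithelial cells in the epithelial state (CAGTATT), was in 0.545%. The miR-203 seed read on the opposite strand was in 0.846%. A probe shows only 60 bases of a transcript. The files give neither a gene name nor a map position for any of the 42006 probes, so whether a site lies in a 3' untranslated region is not known here, and sites outside the 60 bases were not seen. Without names, Dicer1 itself and marker genes of skin cell types were not analysed here, and neither the knockout nor the tissue label was checked.

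The members were richer in A and T than the array as a whole. The median G+C content was 40% in the kept members and ranged from 25% to 66.7%, against a median of 45% over all tested probes. The other probes were therefore also summarised with weights that give them the members' G+C content. The base after the site, opposite miRNA position 1, was A in 53 of the 197 members, the form known as an 8-base site. Pairing ran on to position 9 or beyond in 58, and the longest matches reached position 12, in Z00028572-1 and Z00016070-1. Z00059078-1 was the only kept member with 2 copies, its other copy lying at bases 15 to 21 of the probe. The polyadenylation signal AATAAA, searched as written, was in 18 members (9.14%), against 7.69% of all tested probes and 10.1% of the others at matched G+C content. At least 20 bases were shared in 8 pairs of the 295 members, which can then catch the same messages and are not counted as independent.

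On the M scale the members spanned a wide range, from messages far scarcer in footpad than in the reference to messages far richer. In WT at E17.5 the highest was Z00049353-1, with M of 5.27 and 5.39 on the arrays, and the lowest was Z00031338-1, with -3.62 and -3.40. Both kept those extreme levels in KO, at 5.42 and 5.50 and at -3.43 and -3.50, and the arrays of the genotypes overlapped for the second probe. The median M of the members was 0.10 in WT and 0.13 in KO at E16.5, and 0.07 in WT and 0.10 in KO at E17.5. The other probes at matched G+C content had medians of 0.13, 0.14, 0.12 and 0.12 in the same order. The members' medians were thus below theirs in each group, by an amount small beside the spread between members, whose middle 50% ran from -0.38 to 0.65 in WT at E17.5.

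At E17.5 more members were higher than lower in KO. limma, with Benjamini-Hochberg adjustment over all tested probes and a threshold of 0.05, called 27 of 197 members higher in KO (13.7%) and 11 lower (5.58%). Over all 29020 probes tested, 6.97% were called higher and 7.83% lower (14.8% in either direction), and among the other probes at matched G+C content 7.83% and 7.85%. The members' median difference was 0.05 on the log2 scale, against 0.01 for the others at matched G+C content, and 66.5% of members were above 0, against 52.9%. These shares are descriptions: whether the members differ from other probes was not tested. The differences were small, from 1.13- to 1.55-fold (median 1.20) among the 27 higher and from 1.18- to 1.41-fold (median 1.26) among the 11 lower. In no called member did the fold reach 2.

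The split between higher and lower depended on the scaling. With arrays centred on their median in place of loess, 2 members were called higher and 8 lower, 0.865% and 4.96% of all tested probes were called higher and lower, and the members' median was -0.02 against -0.05 over all. With a normexp offset of 10 the split was 14 higher and 9 lower, against 5.02% and 5.72% of all tested probes. In all 23 settings run for E17.5, the median of the members was above that of all tested probes, by 0.02 to 0.06 on the log2 scale. That comparison is not matched for G+C content. In the reported fit the median was 0.005 over all tested probes and 0.011 in the others at matched G+C content. The settings refit the same arrays and are not independent. Several could not move the members' median, which stayed at 0.051. These were a threshold of 0.01, array weights, the replicate number as a block, and the fits without an array of E16.5. The 4 arrays of E17.5 alone also gave 0.051. The number of settings therefore overstates how often the comparison could have come out otherwise. Leaving out 1 array of E17.5 left 12 members called without KO replicate 1 (8 higher and 4 lower), 12 without KO replicate 2 (6 and 6), 13 without WT replicate 1 (10 and 3) and 17 without WT replicate 2 (9 and 8). Over all tested probes the shares called also fell without an array, with more called lower than higher each time. With the 4 arrays of E17.5 alone the split in the members was 14 and 11, against 4.76% and 5.89% of all tested probes. The excess of higher over lower calls was thus absent without KO replicate 2 and was 1 member without WT replicate 2. With normexp fitted on all spots, which is distorted on 2 arrays, limma called no member at an adjusted p under 0.05, and 30 had an unadjusted p under 0.05, 14 of them higher in KO.

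The member with the largest rise in KO at E17.5 was Z00075914-1, whose site lies at bases 42 to 48 of the probe and whose pairing with the miRNA runs to position 10. Its M was 0.13 and 0.21 in KO and -0.40 and -0.54 in WT. Both KO arrays lay above both WT arrays, a difference of 0.64 ± 0.062 (SE, n = 2 arrays a group; 1.55-fold; limma adjusted p = 0.000601). At E16.5 its M was 0.27 and 0.29 in KO and -0.18 and -0.16 in WT. The arrays were apart again and in the same order, with a difference of 0.45 ± 0.062 (SE; 1.37-fold; limma adjusted p = 0.00988). The probe fell from E16.5 to E17.5 in WT by 0.30 (limma adjusted p = 0.00837) and differed by -0.11 between the stages in KO (limma adjusted p = 0.204).

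Z00025996-1 had the second largest rise at E17.5. Its site is followed by A. M was 0.38 and 0.24 in KO and -0.30 and -0.08 in WT, so the KO arrays were the higher ones, by 0.50 ± 0.079 (SE; 1.41-fold; limma adjusted p = 0.00527). At E16.5 the values were 0.66 and 0.72 in KO and 0.55 and 0.52 in WT. The order was the same, but the difference of 0.15 did not pass (limma adjusted p = 0.319). This message fell with stage in both genotypes, by 0.72 in WT (limma adjusted p = 0.000337) and by 0.38 in KO (limma adjusted p = 0.00865).

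Among the members lower in KO, Z00042229-1 had the largest difference at E17.5. Its site is also followed by A, and pairing reaches position 9. M was 1.76 and 1.63 in KO and 2.18 and 2.2 in WT, a difference of -0.50 ± 0.062 (SE; 1.41-fold lower in KO; limma adjusted p = 0.00187). At E16.5 it was 1.27 and 1.20 in KO and 1.66 and 1.73 in WT, a difference of -0.46 ± 0.062 (SE; limma adjusted p = 0.00909). In both stages the KO arrays were the lower ones without overlap, and the probe rose with stage in WT by 0.50 (limma adjusted p = 0.000653) and in KO by 0.46 (limma adjusted p = 0.00115).

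Z00055751-1 was the next lowest at E17.5, with pairing to position 10. M was 0.15 and 0.22 in KO against 0.78 and 0.52 in WT, a difference of -0.47 ± 0.084 (SE; 1.38-fold lower; limma adjusted p = 0.00907). The WT arrays were above the KO arrays at E16.5 too, at 0.23 and 0.31 against 0.17 and 0.09, but that difference of -0.14 did not pass (limma adjusted p = 0.383). WT rose between the stages by 0.38 (limma adjusted p = 0.0113), and in KO the stages differed by 0.06 (limma adjusted p = 0.658). Z00075914-1 and Z00055751-1, the one higher and the other lower in KO, thus have the same length of pairing.

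Of the 22 alternatives run at E17.5, 1 ended the call of Z00075914-1, 1 that of Z00025996-1, 1 that of Z00042229-1 and 2 that of Z00055751-1, with the direction kept. The threshold of 0.01 could not end these calls, since each limma adjusted p was already below it. Array weights, the replicate number as a block, the fits without an array of E16.5 and the E17.5 arrays alone left each difference unchanged. The direction could not change in those settings.

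At E16.5 few members were called. limma called 4 of 196 higher in KO (2.04%) and 2 lower (1.02%), against 1.09% and 1.86% of the 29015 probes tested (2.95% in either direction). At matched G+C content 1.33% of the others were higher and 1.78% lower. By limma, 47 members had an unadjusted p under 0.05 (24.0%), 32 of them higher in KO, against 20.1% of all tested probes. The members' median difference was 0.04 on the log2 scale, against 0.02 in the others at matched G+C content, and 65.8% were above 0 against 58.7%. Each of the 6 called members was called in the same direction at E17.5. How often this held over all called probes is not given here. Besides Z00075914-1 and Z00042229-1, the rule for named probes gives Z00062898-1 and Z00013169-1 at this stage.

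Z00062898-1, with its site at bases 6 to 12, had M of 1.69 and 1.58 in KO and 1.21 and 1.31 in WT at E16.5. The KO arrays were higher without overlap, by 0.38 (1.30-fold; limma adjusted p = 0.0446). At E17.5 the values were 1.66 and 1.65 in KO and 1.38 and 1.15 in WT, again apart, by 0.39 (limma adjusted p = 0.014). Z00013169-1 showed the opposite order. Its M at E16.5 was 0.70 and 0.64 in KO and 0.96 and 1.04 in WT, a difference of -0.33 (limma adjusted p = 0.0331), and at E17.5 it was 0.88 and 0.80 against 1.31 and 1.19, a difference of -0.41 (limma adjusted p = 0.00442).

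The E16.5 calls were easily lost. Of the 23 alternatives, 16 ended the call of Z00062898-1 at this stage, 11 that of Z00013169-1, 6 that of Z00075914-1 and 5 that of Z00042229-1, each with the direction kept. Several alternatives, such as the fits without an array of E17.5, left each difference unchanged, so the direction could not change there. No member was called without KO replicate 2 of E16.5 or without WT replicate 2 of E16.5 (29 and 30 had an unadjusted p under 0.05 by limma), 2 without WT replicate 1, and 3 without KO replicate 1 or without either KO array of E17.5, which share the estimate of spread. Median centring gave 0 higher and 2 lower, against 0.172% and 2.14% of all tested probes. Removal of a trend in G+C content gave 1 higher and 3 lower, against 0.882% and 1.73%.

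With genotype and stage as terms over all 8 arrays, 29 of 197 members were called higher in KO (14.7%) and 11 lower (5.58%), against 7.79% and 7.9% of 29106 probes (15.7% in either direction). The other probes at matched G+C content had 9.46% higher and 7.51% lower. The folds of the members ran from 1.09 to 1.46 upward and from 1.1 to 1.39 downward. Of the 27 members higher at E17.5, 21 were also called here, and of the 11 lower, 9; these comparisons share the E17.5 arrays. Z00075914-1 again had the largest rise (0.54 on the log2 scale, limma adjusted p = 0.000369), followed by Z00062898-1 (0.39, limma adjusted p = 0.00234).

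The members lower over both stages, of those with all KO arrays below all WT arrays, included Z00076113-1 and Z00013169-1. Z00076113-1 is a dim probe, with a mean log2 intensity over both dyes of 6.44. Its M was 0.83 and 0.72 in KO and 0.98 and 1.20 in WT at E16.5, then 0.75 and 0.81 in KO and 1.37 and 1.05 in WT at E17.5. Every KO array was below every WT array, with a difference of -0.37 (limma adjusted p = 0.0117), but 4 of 21 alternatives ended the call, and the difference was -0.04 with Agilent's processed signals and with the series matrix. Z00013169-1 had the same difference of -0.37 (limma adjusted p = 0.00122), and 1 of 21 alternatives ended its call.

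Over both stages median centring turned the split to 1 higher and 18 lower, with 0.845% and 12.4% of all tested probes higher and lower. The members' median was above that of all tested probes in each of the 22 settings, by 0.02 to 0.07. This too is not matched for G+C content, and the settings refit the same arrays. The members' median stayed at 0.053 with a threshold of 0.01 and with the replicate number as a block, which could not move it. In the reported fit the median was 0.010 over all tested probes and 0.019 in the others at matched G+C content. Without WT replicate 2 of E16.5 26 members were called, without KO replicate 1 of E17.5 26, without KO replicate 2 of E17.5 18, without WT replicate 1 of E17.5 26 and without WT replicate 2 of E17.5 21, against 40 with all arrays.

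The same difference between the genotypes was laid out array by array. For the 193 members with a value on all 8 arrays, the deviation of each probe from its mean in that stage was taken, and the members' median was set against that of the others at matched G+C content. At E17.5 the members stood 0.019 and 0.029 above the others on the KO arrays and at -0.021 and -0.018 against them on the WT arrays. At E16.5 the KO arrays were at 0.0092 and 0.0028 and the WT arrays at -0.0097 and -0.020. The genotypes did not overlap in either stage, at a size far below the spread of a single probe. Deviations from the mean of a stage offset each other between the genotypes. These values thus restate the differences above, are no separate support for them, and were given no test.

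No member passed the test of a change in the KO effect between the stages. limma called 0 of 196 for the difference between the E17.5 and E16.5 effects, against 0.308% of 28929 probes (0.114% upward and 0.194% downward). An unadjusted p under 0.05 was found for 25 members (12.8%, against 12.1% of all probes tested), 14 with the larger effect upward at E17.5 and 11 downward. The number called was 0 in each of the 22 settings run. The members with the smallest p upward were Z00034670-1 (0.31 on the log2 scale, limma adjusted p = 0.237) and Z00018258-1 (0.27, limma adjusted p = 0.299). Downward they were Z00019599-1 (-0.28, limma adjusted p = 0.292) and Z00047328-1 (-0.57 ± 0.20 SE, limma adjusted p = 0.321). A member called at E17.5 and not at E16.5 is therefore not shown to differ between the stages. Of the 27 higher at E17.5, 25 were above 0 at E16.5, and all 11 lower were below 0. The same count over all called probes is not given here.

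Other groups of probes were counted in the same way at E17.5. Of 246 probes with the miR-203 seed on the opposite strand, which share the G+C content of the 7 letters, 21 were higher (8.54%) and 18 lower (7.32%), with a median difference of 0.00. Of 187 with the miR-205-5p site, 14 were higher (7.49%) and 11 lower (5.88%), with a median of 0.02. Of 157 with the miR-200b-3p site, 15 were higher (9.55%) and 14 lower (8.92%), also with a median of 0.02. Over all tested probes it was 6.97% and 7.83%. The count of 27 higher against 11 lower among the miR-203 members was the most uneven of these, and no test of that difference was made. Over both stages the opposite-strand probes had 26 higher (10.5%) and 18 lower (7.29%) of 247. Those with the miR-205-5p site had 21 (11.2%) and 16 (8.51%) of 188. Those with the miR-200b-3p site had 14 (8.92%) and 13 (8.28%) of 157. Over all tested probes it was 7.79% and 7.90%. At E16.5 the median difference was 0.04 in the members, in the opposite-strand probes and in those with the miR-200b-3p site, and close to 0 in those with the miR-205-5p site, of which 2.67% were called higher against 2.04% of the members.

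Features of the site known to matter for repression were then set beside the E17.5 calls, as counts with no test between classes. Among the 53 members with A after the site, 9 were higher in KO and 2 lower, with a median difference of 0.05. Among the 139 with C, G or T there, 18 were higher (12.9%) and 9 lower (6.47%), with the same median of 0.05. The others at their G+C content had 7.79% higher and 7.89% lower. Members followed by C had 4 higher and 0 lower of 30, by G 10 and 5 of 49, and by T 4 and 4 of 60. In the other 5 members the site ends the probe. Over both stages the 53 with A had 6 higher (11.3%) and 3 lower (5.66%), against 10.5% and 7.07% of the others at their G+C content, and the 139 without A had 23 higher and 8 lower (5.76%), against 9.09% and 7.64% of the others.

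Pairing beyond the seed was counted in the same way. Of the 58 members paired at position 9 or beyond, 7 were higher and 7 lower at E17.5 (12.1% each, median 0.02). The others at their G+C content had 7.93% higher and 7.81% lower. Of the 139 without a pair at position 9, 20 were higher (14.4%) and 4 lower (2.88%, median 0.06). The others at matched G+C content had 7.79% and 7.87%. Z00028572-1, with pairing to position 12, had M of 1.35 and 1.5 in KO and 1.70 and 1.79 in WT. It was lower in KO without overlap, by -0.32 (limma adjusted p = 0.0306). Z00016070-1, the other of that length, had -0.11 and -0.21 in KO and -0.08 and -0.16 in WT. Its arrays overlapped (difference -0.04, limma adjusted p = 0.769). Z00059078-1, with 2 copies of the site, had -0.16 and -0.16 in KO and -0.15 and -0.22 in WT, also overlapping (0.02, limma adjusted p = 0.834). Over both stages 9 of the 58 paired members were higher (15.5%) and 6 lower (10.3%), against 9.43% and 7.54% of the others at their G+C content. Of the 139 unpaired at position 9, 20 were higher (14.4%) and 5 lower (3.60%), against 9.47% and 7.49%.

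The calls were more uneven in the members whose other bases were richer in A and T. This measure takes in every base of the probe outside the site and follows the probe's G+C content. AU-rich surroundings close to a site are known to favour repression, but whether that bears on these counts was not tested. Of the 89 members whose other bases held more A+T than the members' median of 58.5%, 19 were higher in KO at E17.5 (21.3%) and 1 lower (1.12%), with a median difference of 0.08. Of the 108 at or below that median, 8 were higher (7.41%) and 10 lower (9.26%), with a median of 0.03. Other probes weighted to the G+C content of the A+T-rich members had 9.01% higher and 7.63% lower, with a median of 0.02, and those weighted to the rest 6.87% higher and 8.03% lower, with a median of 0.00. Over both stages the A+T-rich members had 20 higher (22.5%) and 1 lower (1.12%), against 12.4% and 6.48% of the others at the same G+C content. The rest had 9 (8.33%) and 10 (9.26%), against 7.02% and 8.35% of the others at theirs. The difference between the members and the others was not tested, and the class was examined with earlier results known. With a trend in G+C content removed from each array, 25 members were higher and 13 lower at E17.5, against 6.84% and 7.78% of all tested probes.

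By position in the probe the counts were similar. With the site centred in the first 30 bases 13 of 87 members were higher (14.9%) and 4 lower (4.60%) at E17.5. The others at their G+C content had 7.92% and 7.89%. With the site further on it was 14 of 110 (12.7%) and 7 (6.36%), against 7.76% and 7.82% of the others. Of the 18 with AATAAA, 1 was higher and 1 lower (5.56% each), against 8.30% and 7.28% of the others at their G+C content. The members Z00030645-1 and Z00044824-1 share at least 20 bases and were both higher at E17.5, each by 0.27 (limma adjusted p = 0.0458 and 0.0258). Since they share a stretch of sequence, they are not independent members of the 27.

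From E16.5 to E17.5 the members moved in both directions in about equal number. In WT 24 of 197 rose (12.2%) and 29 fell (14.7%), against 13% and 11.7% of 29027 probes (24.7% in either direction). In KO 32 of 196 rose (16.3%) and 30 fell (15.3%), against 13.4% and 14.8% of 29003 probes (28.1% in either direction). At matched G+C content 13.0% of the others rose and 13.2% fell in WT, and 13.0% rose and 17.1% fell in KO. Of the risers, 22 were called in both genotypes (91.7% of those in WT and 68.8% of those in KO), and of the fallers 19 (65.5% and 63.3%). The same overlap over all tested probes is not given here, so it is not shown to be particular to the members. Median centring changed the split to 10 rising and 20 falling in each genotype. Over all tested probes it then gave 4.88% rising and 8.09% falling in WT, and 4.54% and 7.67% in KO. Without WT replicate 2 of E17.5 35 members were called in WT. In KO 37 were called without KO replicate 2 of E16.5 and 31 without KO replicate 1 of E17.5.

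The largest differences among called members were those between stages. Z00060176-1, with the site at bases 53 to 59 of the probe (atttatactggaaatatttcttCATTTCAg), had M of 2.00 and 2.05 in WT at E16.5 and 3.57 and 3.55 at E17.5. It rose in WT by 1.54 (2.91-fold; limma adjusted p = 2.69e-05) and in KO, from 1.97 and 2.16 to 3.38 and 3.06, by 1.16 (2.23-fold; limma adjusted p = 0.000176). Z00009201-1 rose in WT by 0.68 (limma adjusted p = 0.000916), and normexp on all spots ended that call. Z00013540-1 rose in KO by 0.84 (limma adjusted p = 7.21e-05), with a range of 0.23 to 1.17 over the alternatives. The lowest was with normexp on all spots, which ended this call (limma adjusted p = 0.706) and that of Z00060176-1 in KO (limma adjusted p = 0.0613). In the reported fit the arrays of the stages were apart for each of these probes.

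The largest fall in WT was that of Z00020839-1, whose site lies at bases 4 to 10 (tacCATTTCAcagtgaaatatttttgagta). M went from 0.06 and 0.08 to -1.04 and -0.97 in WT, and from 0.23 and 0.23 to -0.83 and -0.72 in KO. It fell by 1.07 in WT (limma adjusted p = 7.21e-06) and by 1.00 in KO (limma adjusted p = 2.13e-05), and it was higher in KO at E17.5 by 0.23 (limma adjusted p = 0.0285). Z00024717-1 was well above background on both arrays of each E16.5 group and on 1 array of each E17.5 group. It fell by 0.75 in WT (limma adjusted p = 0.00185) and by 1.03 in KO (limma adjusted p = 0.000485). The size is not well fixed: over the alternatives it ran from -0.50 to -2.07 in WT and from -0.71 to -3.34 in KO, and normexp on all spots ended both calls. Of the 27 members higher in KO at E17.5, 9 were among those that fell with stage in WT and 2 among those that rose. Of the 11 lower in KO, 5 rose with stage in WT and 0 fell. The WT arrays of E17.5 enter both comparisons, so these counts are not independent. The same counts over all called probes are not given here, so the pattern is not shown to be particular to the members.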

How the data were processed

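Footpad RNA (Cy3) and a universal reference (Cy5) were measured on 8 Agilent arrays. Per the file headers, Feature Extraction 9.5.1.1 gave linear intensity, local background and quality marks for each spot. The deposited series matrix holds the authors' log10 values, which are log10 ratios of the processed dyes shifted by a constant for each probe (its mean log10 Cy5), and serves as an alternative.

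Spots marked non-uniform in the feature or local background (269 to 364 of 43451 on an array) were left out before normexp (offset 50) in limma 3.58.1 under R 4.3.3. Loess within arrays followed, where the 1417 controls had weight 0. Controls and population outliers were then dropped and repeated spots averaged. The fit covered all 29199 probes that passed the filter, with 1 mean a group (or stage and genotype), Benjamini-Hochberg adjustment and a threshold of 0.05. A difference needs a kept spot in each of its groups, so the number tested varies. Of the kept members, 4 lack a spot on an array, and 1 has no E16.5 difference. The test and the site search were tested on simulated data. There limma recovered 30% of 1.25-fold changes at E16.5, 28.8% at E17.5 and 82% over both stages. For 1.5-fold changes it recovered 90.8%, 90.4% and 97.6%. Of its calls, 5.78%, 6.26% and 5.2% were false. Changes as small as most of those called here can thus be missed within a stage. Pearson's r of M within groups was 0.995 to 0.996, and 62.0% to 72.0% of probes were well above background. The number of arrays limits the precision.

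The members, lists and fit were chosen with earlier results of these data known. Replicate numbers did not pair arrays: deviations of same-numbered KO and WT arrays correlated at -0.22 at E16.5 and -0.014 at E17.5, and those of the stages at 0.17 in KO and -0.26 in WT. Naming probes through a protein table was planned. No such table was given and no probe identifier occurs among the 49997 mouse genes at hand, so cell type markers and known targets are not analysed here. By the rule for probes without names, up to 2 members with the largest rise and 2 with the largest fall are named in each comparison, among those past the threshold with the arrays of the groups apart (where none passed, those with the smallest p). Members with more than 1 copy, the longest match and the extreme levels are named too. The pair sharing bases was named after its values were seen.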

Additional observations from a re-analysis of the deposited data

How the results depend on the processing

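Counts are of members called. The shares called over all tested probes moved with the setting too, also where 1 array was left out, so a count alone does not describe the members. At E16.5 they were 1.79% higher and 2.74% lower with Cy3 alone, against 1.09% and 1.86% in the reported fit. At E17.5 they were 4.04% and 5.03% with the processed signals, 3.37% and 3.98% with no filter, and 1.96% and 2.91% at 0.01. The reported fit had 6.97% and 7.83%. KO against WT at E16.5 (6 called) gave 0 with normexp on all spots, 0 with Agilent's processed signals, 0 with the series matrix, 3 with offset 10, 2 with median centring, 11 with Cy3 alone, 3 with no filter, 2 at a threshold of 0.01, 2 with the 4 arrays of that stage only, and 2 with the replicate number as a block; crossing the numbers, an alternative added after seeing the data, gave 6. In these settings with 0 calls limma gave an unadjusted p under 0.05 for 11, 41 and 41 members. At E17.5 (38) it gave 0 with normexp on all spots, 18 with the processed signals, 18 with the series matrix, 23 with offset 10, 10 with median centring, 23 with no filter, 10 at 0.01 and 25 with 4 arrays; the replicate block gave 27. Over both stages (40) it gave 1 with normexp on all spots, 19 with median centring and 12 at 0.01, and the replicate block 31. By stage in WT (53) it gave 6 with normexp on all spots, 30 with median centring and 30 at 0.01; in KO (62) 4, 30 and 35. Leaving out 1 array gave 0 to 4 at E16.5, 12 to 35 at E17.5, 18 to 30 over both stages, 0 throughout for the difference between stages, 35 to 58 in WT and 31 to 59 in KO. The named members kept their direction in every alternative, although several alternatives leave the difference unchanged and could not have turned it. For those with a call, it stood in 375 cases and was lost in 55; the 4 named for the difference between stages had none and gained none. Of the 38 members called at E17.5, 32 kept their sign with normexp on all spots, where 0 were called. The cause of these changes was not tested, beyond the distortion of that fit on 2 arrays, whose Cy3 background means were -7.00 and -320.8 against 4.81 to 9.14 without the marked spots. Members near background are limited by signal: 8 passed through 1 group only.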
